A study of Mus musculus with 14 samples.

Results

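The esophageal stroma of aged and young mice was compared in 5 of the 14 bulk RNA-Seq samples of the series. These 5 are every sample whose label gives the esophageal stroma as its tissue: mice O1, O2 and O3, labelled aged, and mice Y1 and Y3, labelled young. All were untreated C57BL/6 mice for which the labels give no genetic change, and the age bounds are 18 months or more for aged and 4 months or less for young. The other 9 samples are peeled epithelium, 5 of them from the same 5 mice. Sex is not given in the labels, and nothing beyond the mouse code separates the samples of a group, so p-values measure the spread between these few animals. The question addressed is whether the tissue under the epithelium, and not only the epithelium, differs with age.

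The wall of the mouse esophagus under the squamous epithelium holds connective tissue with fibroblasts, vessels and nerves, a thin smooth muscle sheet of the mucosa, and a thick outer coat of striated muscle that is under motor and enteric nerve control. The outer surface faces loose connective tissue with fat and, in part, a mesothelium, the flat epithelium that lines body cavities. RNA from all of these cells is mixed in a bulk sample, so that fewer cells of a type and less RNA per cell cannot be told apart in any result below.

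Striated muscle was the tissue that these samples mostly held. When counts were divided by exon length and scaled to TPM over protein-coding genes, Acta1, the actin of skeletal muscle fibres, led these genes outside the mitochondrial genome with TPM values of 60533, 60594 and 53146 in aged mice and 61874 and 60751 in young mice. Next came Tnnt3, a fast fibre troponin, at 16422, 17942 and 16479 in aged mice and 14192 and 16173 in young mice. Defining markers of the epithelium were low by comparison. Krt4 is a keratin of the upper esophageal epithelium. With both layers of the 5 mice normalized together, it had between 25.4 and 297 normalized counts in stroma and between 32870.1 and 43190.5 in epithelium. A normalized count here is a CPM value on a library size scaled by edgeR's TMM method. The scaling used the 5 stromal libraries alone, except where stroma and epithelium are set side by side. For the stromal libraries alone, 3 counts equal 0.173 to 0.257 normalized counts. Values are given in the order O1, O2, O3 for aged mice and Y1, Y3 for young mice throughout.

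The libraries of the 2 ages differed in complexity at nearly equal depth. Total counts were 13257833, 15360319 and 15644580 in the aged mice and 15315509 and 14954878 in the young mice. Genes with at least 1 count numbered 22961, 25497 and 20115 in the aged mice and 34224 and 41308 in the young mice, so the groups did not overlap. As many as 5530 genes were listed at 0 in all 3 aged samples and above 0 in both young samples, and 8 genes had the opposite pattern. Counts of olfactory and vomeronasal receptor genes, which esophageal cells are not known to use, were spread over 449, 510 and 180 genes in the aged mice and over 1092 and 1540 in the young mice, with 18.8, 10.8 and 21.3 counts per detected gene against 6.46 and 7.004. This family was chosen after its values were seen. The young samples also resembled each other more: the Pearson correlation of log2 normalized counts across tested genes was 0.952 between Y1 and Y3, 0.799 to 0.860 between aged samples, and 0.863 to 0.922 between an aged and a young sample. Library complexity and age cannot be told apart in these 5 samples, and this bears most on genes with few counts. Xist was high in O3 and Y3 (2462 and 3899 counts) and Y-linked transcripts were present in O1, O2 and Y1, so each age held both patterns.

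**Figure D1:**
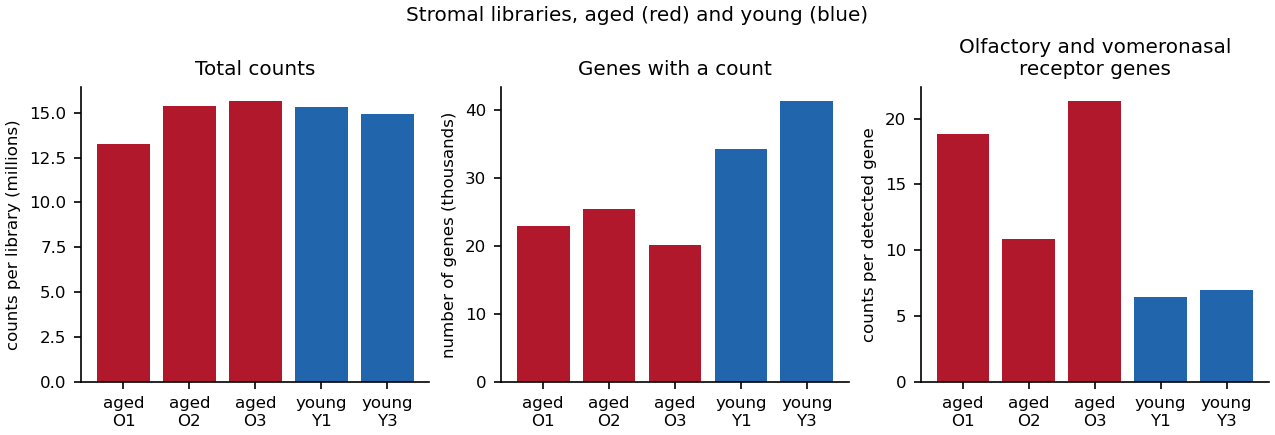
Bars show, for each stromal library, total counts, the number of genes with a count, and counts per detected olfactory or vomeronasal receptor gene, with aged mice in red and young mice in blue. Totals lie between 13257833 and 15644580, whereas 20115 to 25497 genes were detected in aged mice and 34224 and 41308 in young mice.

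No gene passed the test of age across the whole transcriptome. With edgeR's quasi-likelihood test, 0 of the 21323 genes tested had an adjusted p-value (Benjamini-Hochberg) under 0.05 and the lowest adjusted p was 0.99996. An unadjusted p under 0.05 was found for 776 genes (3.64%), of which 214 were higher (1.0%) and 562 lower (2.64%) in aged mice. DESeq2 called 2 genes from the same counts (0.00938% of 21314), Actg2 (log2 fold change 2.58, adjusted p = 9.32e-07) and Cyp2e1 (-2.77, adjusted p = 0.00254). The genes described below are therefore given by their values in each mouse, their log2 fold change (aged minus young) with its standard error (SE), and whether the 3 aged and 2 young values overlap. Over all tested genes, every aged value lay above every young value for 6.42% and below for 14.1%. Among the 2639 genes whose mean log2 CPM was 5 or more, these shares were 12.4% above and 5.72% below. The median log2 fold change of all tested genes was -0.01. The gene lists were chosen with earlier results of these data known, so shares of their members set against all genes are descriptive only. The 3 most abundant members of each gene list are named here or in the closing observations whatever their values, and the other genes named were chosen after their values were seen, mostly because the ages did not overlap.

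**Figure D2:**
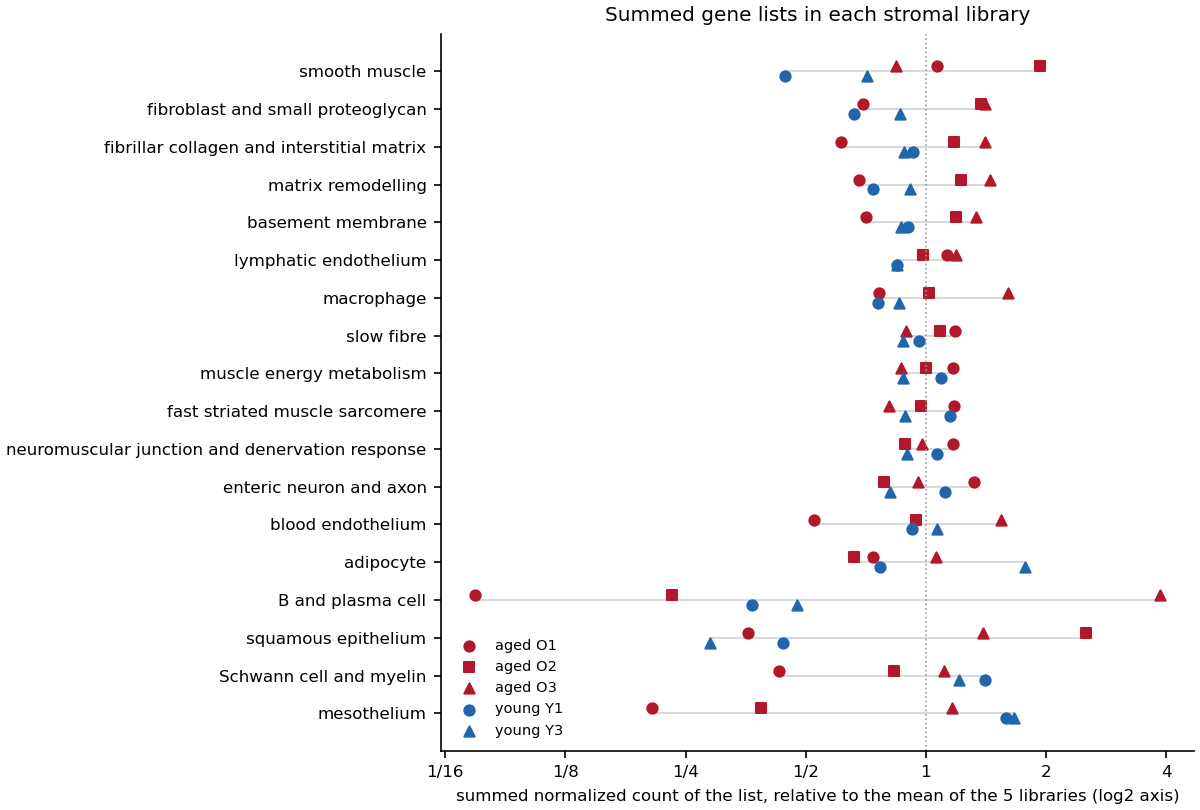
Each point is the summed normalized count of a gene list in a stromal library, divided by the mean of the 5 libraries, on a log2 axis, with aged mice in red and young mice in blue. The smooth muscle and lymphatic sums of all aged mice lie above those of both young mice, the Schwann cell and mesothelial sums lie below, striated muscle sums are close together, and O3 stands apart for B and plasma cell genes.

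Smooth muscle genes were higher in aged stroma. Of the 14 genes of this list, all of which were tested, 13 had a positive log2 fold change and none was called by edgeR. No overlap between the ages was found for 6, each with the aged mice higher, against 6.42% of all genes and 12.4% of abundant ones. An unadjusted p under 0.05 was found for 6 members (Actg2, Myh11, Cnn1, Acta2, Mylk and Smtn), against 1.0% of all genes in that direction. The median log2 fold change was 1.02. Summed over the list, normalized counts were 2815, 5125 and 2220.2 in aged mice and 1175 and 1887 in young mice. The lowest aged value belonged to O3, which lay closer to Y3 than to O2. Squamous epithelial genes, whose values are given further on, were also highest in O2, and their part in this difference was not tested.

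Actg2, the gamma actin typical of visceral smooth muscle (chromosome 6, 83512905 to 83536265 in GRCm38, minus strand), had 202, 387 and 159 normalized counts in aged mice and 25.3 and 59.5 in young mice. It had the lowest unadjusted p of all genes tested (0.000358), with a log2 fold change of 2.56 ± 0.48 (SE). The mean in aged mice was 249.6 ± 121 (SD, n = 3). Each aged mouse therefore had more than 2 times the Actg2 level of the higher young mouse. Myh11, the smooth muscle myosin heavy chain (chromosome 16, 14194535 to 14291372 in GRCm38, minus strand), had 797, 1646 and 681 normalized counts in aged mice and 209 and 496 in young mice, and its log2 fold change was 1.56 ± 0.47. Acta2, the alpha actin of smooth muscle and myofibroblasts (chromosome 19, 34241090 to 34255590 in GRCm38, minus strand), had 338, 965 and 394 normalized counts in aged mice and 179 and 270.4 in young mice (1.33 ± 0.45). Both genes were highest in O2, and for both the gap between the lowest aged and the highest young mouse was small against the spread of the aged mice. Cnn1, calponin, which binds actin and restrains myosin in smooth muscle, was at 167, 269.9 and 70.6 in aged mice and 16.3 and 64.5 in young mice (2.06 ± 0.64), with O3 and Y3 nearly equal. Smtn, smoothelin, had 77.7, 211 and 79.5 in aged mice and 49.6 and 68.6 in young mice. Myocd, the coactivator that switches on the smooth muscle programme, had 12.6, 24.6 and 11.8 in aged mice and 6.35 and 10.4 in young mice. Both were without overlap and again highest in O2.

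The other members were less clear. Mylk, the kinase that starts smooth muscle contraction, was at 249, 488 and 166 in aged mice and 69.2 and 171 in young mice, with O3 just under Y3. Synpo2, an actin-bundling protein shared with striated muscle, was at 454, 545 and 302 in aged mice and 316 and 330.2 in young mice. Neither gene separated the ages. Ramp1, a receptor subunit, was level (86.4, 73.6 and 43.1 in aged mice and 83.4 and 54.2 in young mice). Tagln, usually an abundant smooth muscle transcript, had only 1.03, 5.21 and 0.690 in aged mice and 0.310 and 0.887 in young mice. It overlaps Pcsk7 and Gm48529 on the opposite strand in the annotation, the strand setting of the counting is not given in the sources used here, and its count is uncertain. Mylk likewise overlaps antisense genes.

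**Figure D3:**
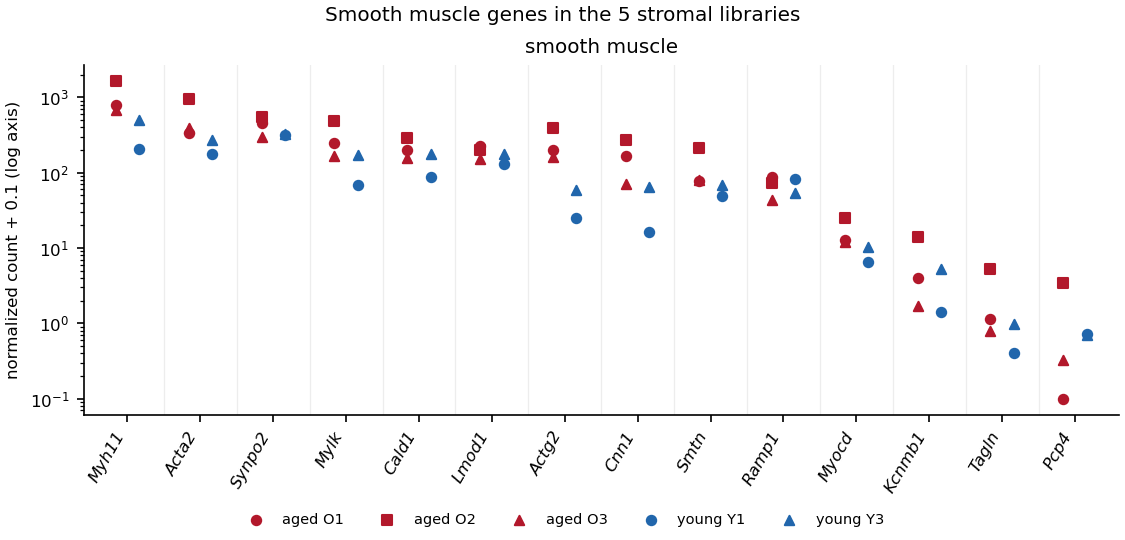
Normalized counts (plus 0.1, log axis) of the 14 smooth muscle genes in each stromal library, ordered by mean level, with aged mice in red and young mice in blue. For Actg2 the aged values of 159 to 387 lie above the young values of 25.3 and 59.5, while Ramp1 and Synpo2 overlap.

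The same genes were steady in the epithelium peeled from these mice. With the 10 samples of both layers normalized together, the smooth muscle list summed to 1323, 1337 and 1252 in aged mice and 1289 and 1331 in young mice in epithelium, against 2748, 5004 and 2170.03 in aged mice and 1146 and 1831 in young mice in stroma. Actg2 in epithelium was 106, 146 and 127 in aged mice and 119.5 and 111 in young mice. The peeled epithelium of young mice thus held more Actg2 than their stroma, and that of aged mice held less. Myh11 in epithelium was 621, 522 and 470.1 in aged mice and 569 and 519 in young mice, again with overlap. The difference between layers in the age effect was tested as an interaction: 0 of 22771 genes passed in edgeR (lowest adjusted p = 0.110), with 979 (4.3%) at an unadjusted p under 0.05, and DESeq2 called 62 (0.291%). For Actg2 the interaction log2 fold change was 2.43 (edgeR adjusted p = 0.710, DESeq2 adjusted p = 0.0338), and 4 of the 14 smooth muscle genes had a positive interaction at an unadjusted p under 0.05, against 1.14% of all genes.

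Striated muscle genes differed little with age. The fast sarcomere list, whose 14 members build the contractile apparatus of fast fibres, had a median log2 fold change of -0.13, and its summed normalized counts were 43201, 35702 and 29567 in aged mice and 42245 and 32483 in young mice. Sums also overlapped for the 15 genes of the sarcomere scaffold, led by the giant proteins Ttn and Neb and by the intermediate filament Des (median 0.04). The 16 genes of excitation-contraction coupling, led by the calcium pump Atp2a1, the release channel Ryr1 and Srl, had a median of -0.04. The 15 genes of muscle energy metabolism, led by Aldoa, Ckm and Mb, had a median of 0.01. In the scaffold, coupling and energy lists, Stac3, Pfkm and Mb were above the young values in every aged mouse (background 6.42%). Tmod4 was below them in every aged mouse (background 14.1%). The oxygen carrier Mb (myoglobin) was at 1545, 1261 and 1239.96 in aged mice and 1219.8 and 1129 in young mice. Acta1 was at 16554, 13368 and 10954 in aged mice and 16324 and 12981 in young mice. Myh1, the heavy chain of fast IIx fibres, was at 9105, 6764 and 5656 in aged mice and 8491 and 5809 in young mice, and Tnnt3 at 4628, 4079.5 and 3500.5 in aged mice and 3859 and 3562 in young mice. The spread among the aged mice exceeded the difference between the ages for Acta1 and Myh1, with O1 highest and O3 lowest.

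Actn3, the alpha-actinin that anchors actin in the Z disc of fast glycolytic fibres (chromosome 19, 4861216 to 4877909 in GRCm38, minus strand), was the exception in the fast sarcomere list. It had 542, 328 and 273 normalized counts in aged mice and 817 and 792 in young mice, without overlap (background 14.1%). Its log2 fold change was -1.08 ± 0.30 (unadjusted p = 0.00522, edgeR), and the mean in aged mice was 381 ± 142 (SD, n = 3). No other member of the list separated the ages, and its close relative Actn2, the form found in all striated fibres, was at 778, 617 and 554 in aged mice and 822 and 527 in young mice. The log2 fold change of Actn3 was negative under all 16 alternative settings, between -1.42 and -0.91, and the gene was called under 3 of them.

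The myosin make-up was stable. Per length, Myh1 supplied 54.3%, 53.8% and 48.4% in aged mice and 53.3% and 47.3% in young mice of the summed TPM of 8 sarcomeric heavy chains. Myh8, named for its use in perinatal muscle, supplied 35.5%, 30.9% and 37.7% in aged mice and 33.4% and 37.5% in young mice. The IIb chain Myh4 supplied 4.56%, 9.38% and 7.33% in aged mice and 7.88% and 8.41% in young mice, lowest in O1. The IIa chain Myh2 supplied 3.68% to 4.87% and Myh13, a chain of eye muscle, 1.29% to 1.63%. The slow chain Myh7 was at most 0.0944% in any sample. These chains are closely alike in sequence, so each share is uncertain where reads match several of them. Slow fibre genes leaned to higher values in aged mice: 11 of 12 had a positive log2 fold change (median 0.44), and the sums overlapped. The calsequestrin Casq2 was the only 1 of the 12 without overlap, with the aged mice higher (background 6.42%). It was at 82.3, 83.2 and 69.8 in aged mice and 53.6 and 57.3 in young mice. Myl3, Mybpc1 and Atp2a2, the highest of this list, had log2 fold changes of 0.18, 0.08 and 0.21.

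The list of satellite cell (muscle stem cell) and regeneration genes gave no common direction (8 of 10 tested, median -0.04). Besides Myh8, its highest members were the embryonic chain Myh3 at 55.4, 18.9 and 41.7 in aged mice and 31.1 and 32.7 in young mice and the myogenic factor Myod1 at 13.3, 19.4 and 16.7 in aged mice and 20.7 and 14.3 in young mice. Both overlapped. Myh8 and Myh3 are myosin chains and do not measure stem cells. Of the other members, log2 fold changes were positive for Pax7 and Calcr (0.81 and 1.31) and negative for Myf5 and Megf10 (-0.66 and -3.70).

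Fibroblast genes were higher in 2 of the aged mice. Of 17 genes, all tested, 16 had a positive log2 fold change (median 0.50). The aged values lay above the young values for 4 (Pi16, Aspn, Cygb and Clec3b), against 6.42% of all genes and 12.4% of abundant ones, and below for 1 (Fmod), against 14.1%. None was called. List sums were 1803, 3564 and 3655 in aged mice and 1707 and 2228 in young mice. O2 and O3 were above both young mice and O1 lay between them, so the sums overlapped.

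Gsn, gelsolin, which severs actin filaments and was the most abundant member, had 1141, 2210.4 and 2335 normalized counts in aged mice and 966 and 1301 in young mice (0.74 ± 0.34). Dcn, decorin, the main small proteoglycan of collagen fibrils, had 148, 346 and 363 normalized counts in aged mice and 200.02 and 267 in young mice (0.29 ± 0.37). Dpt, dermatopontin, was at 109.8, 174 and 142 in aged mice and 82.7 and 111 in young mice. O2 and O3 were above both young mice for all 3, O1 was not, and no aged mouse reached 2 times the higher young value. Pi16, a marker of the fibroblasts around vessels and in fascia that are held to be progenitor-like (chromosome 17, 29317680 to 29330593 in GRCm38, plus strand), was at 41.1, 79.97 and 110.01 in aged mice and 31.2 and 31.3 in young mice, with a log2 fold change of 1.30 ± 0.39. Aspn, asporin, was at 23.6, 53.7 and 35.9 in aged mice and 18.04 and 20.5 in young mice. The globin Cygb was at 30.98, 15.4 and 18.2 in aged mice and 10.1 and 11.7 in young mice. The young mice were close to each other for all 3 of these genes, while the aged mice spread upwards from them. Fmod, fibromodulin, a proteoglycan of tendon and cartilage matrix, went the other way at 0.171, 2.85 and 2.30 in aged mice and 6.81 and 15.2 in young mice (-2.62 ± 0.96).

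Collagen and other interstitial matrix genes did not separate the ages. Of 20 genes tested, 13 were positive and 7 negative (median 0.26), and sums were 1470.4, 2812 and 3367 in aged mice and 2224 and 2107 in young mice. O1 was the lowest and O3 the highest of all 5. Col3a1, the collagen of pliable tissue, was at 251, 480.1 and 582 in aged mice and 489 and 401 in young mice (-0.02 ± 0.34). Col1a1, a chain of the main fibrillar collagen, was at 83.4, 155 and 228 in aged mice and 193 and 171 in young mice (-0.23 ± 0.36). Fn1, fibronectin, was at 231, 522 and 669.6 in aged mice and 230.5 and 318 in young mice (0.79 ± 0.40). The collagens therefore showed no age difference beyond the spread of the aged mice. Fbn1, the microfibril protein fibrillin, was at 154, 217 and 306 in aged mice and 155 and 132 in young mice, and only O1 of the aged mice was not above both young mice. Tnc, tenascin, a matrix protein of wounds and tendon, was the only member with every aged value above the young values (background 6.42%). It was at 13.2, 15.1 and 13.9 in aged mice and 6.89 and 7.51 in young mice. Sparc, which binds collagen during its assembly, was the only one below (background 14.1%). Its values were 81.7, 201 and 206 in aged mice and 207 and 244 in young mice. Postn, periostin, was at 21.1, 67.4 and 79.9 in aged mice and 21.8 and 28.99 in young mice, with O1 level with the young mice.

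Basement membrane genes had a median of 0.26 (12 of 15 positive, 0 without overlap). Perlecan (Hspg2) was at 287, 401 and 465 in aged mice and 351 and 276 in young mice. Col4a1, the main collagen of the membrane, was at 101, 187 and 161 in aged mice and 124 and 137 in young mice, and the laminin chain Lamc1 was at 96.6, 170.2 and 182 in aged mice and 124 and 104 in young mice. O1 was the lowest of the 5 mice for Col4a1 and Lamc1.

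Matrix remodelling genes had a median of 0.30 (12 of 18 positive), with the aged values above the young values for Mmp2, Adamts5, Plau and Mmp11 (background 6.42%) and below for Adamts15 (background 14.1%). The gelatinase Mmp2 was at 29.6, 43.1 and 89.998 in aged mice and 17.5 and 27.7 in young mice (1.26 ± 0.46). Plau, the urokinase that activates plasminogen, was at 10.8, 7.94 and 8.74 in aged mice and 2.87 and 3.37 in young mice (1.55 ± 0.59). Mmp2 and Plau were the 2 members with an unadjusted p under 0.05. The inhibitor Timp2, the highest of the list, was at 101, 201 and 247 in aged mice and 117 and 145 in young mice, and the inhibitor Timp3 was at 25.9, 109 and 102 in aged mice and 54.4 and 59.8 in young mice. Both inhibitors were lowest in O1 and overlapped.

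Fat genes were set apart by a single young mouse. Of 18 adipocyte genes tested, 16 had a negative log2 fold change (median -0.63) and 2 were without overlap, both lower in aged mice, a share under the background of 14.1%. Sums were 1889, 1695 and 2726 in aged mice and 1971 and 4547 in young mice. Y3 was highest for 16 of the 18 members and Y1 lay within the range of the aged mice. Without Y3 the median was 0.26, with the opposite sign.

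Adipoq, the hormone adiponectin, had 26.5, 22.02 and 24.5 normalized counts in aged mice and 15.3 and 114 in young mice. Cidec, which enlarges lipid droplets, had 25.9, 24.8 and 43.2 normalized counts in aged mice and 30.98 and 188 in young mice (-1.81 ± 0.58). Fabp4, the fatty acid carrier of adipocytes, had 62.3, 73.2 and 148 normalized counts in aged mice and 77.7 and 459.96 in young mice (-1.51 ± 0.61). Y3 exceeded every other sample at least 3 times for these 3 genes, while Y1 was close to the aged mice. The most abundant member was Car3, a carbonic anhydrase shared with muscle, at 784, 589 and 753 in aged mice and 623 and 1082 in young mice. The desaturase Scd1 was at 111, 163 and 691 in aged mice and 294 and 985 in young mice, high in O3 as well as in Y3. Lpl, the lipoprotein lipase, which muscle also makes, was without overlap at 312, 297 and 275 in aged mice and 368 and 438 in young mice (-0.45 ± 0.22). Acvr1c, a receptor of the TGF-beta family, was the other gene without overlap, at 3.59, 3.78 and 1.21 in aged mice and 6.58 and 13.1 in young mice. For Lpl and Acvr1c both young mice were above the aged mice. Leptin (Lep) was at 4.96, 4.28 and 6.67 in aged mice and 1.86 and 9.88 in young mice. Brown adipocyte genes were low (list median -0.71, 7 tested, 3 positive). Their sums overlapped at 12.1, 18.7 and 41.0 in aged mice and 12.2 and 24.3 in young mice. The highest members, Ucp1, Dio2 and Cidea, had log2 fold changes of 1.34, 0.66 and 0.07, so the negative median came from lower members. Ucp1, the uncoupling protein of brown fat, was at 1.03, 5.65 and 16.6 in aged mice and 2.63 and 3.49 in young mice. Dio2, a deiodinase, was at 9.42, 7.01 and 16.9 in aged mice and 3.02 and 11.004 in young mice and Cidea at 0, 3.72 and 6.33 in aged mice and 2.87 and 3.55 in young mice. O3 was the highest of the 5 mice for these 3 genes.

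Cyp2e1, Alb and Pdk4 are not members of these lists and were chosen after their values were seen. Cyp2e1, a cytochrome P450 of liver and fat, had 22.3, 14.4 and 14.1 normalized counts in aged mice and 32.7 and 205 in young mice. Albumin (Alb) was at 3.85, 3.97 and 12.8 in aged mice and 9.99 and 71.2 in young mice. Both shared the high value in Y3. Pdk4, the kinase that turns muscle from glucose to fatty acid use, was at 231, 214 and 136 in aged mice and 327 and 797 in young mice (-1.53 ± 0.37), with Y1 also above the aged mice. The part of the higher adipocyte transcript levels of Y3 in these values was not tested.

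**Figure D4:**
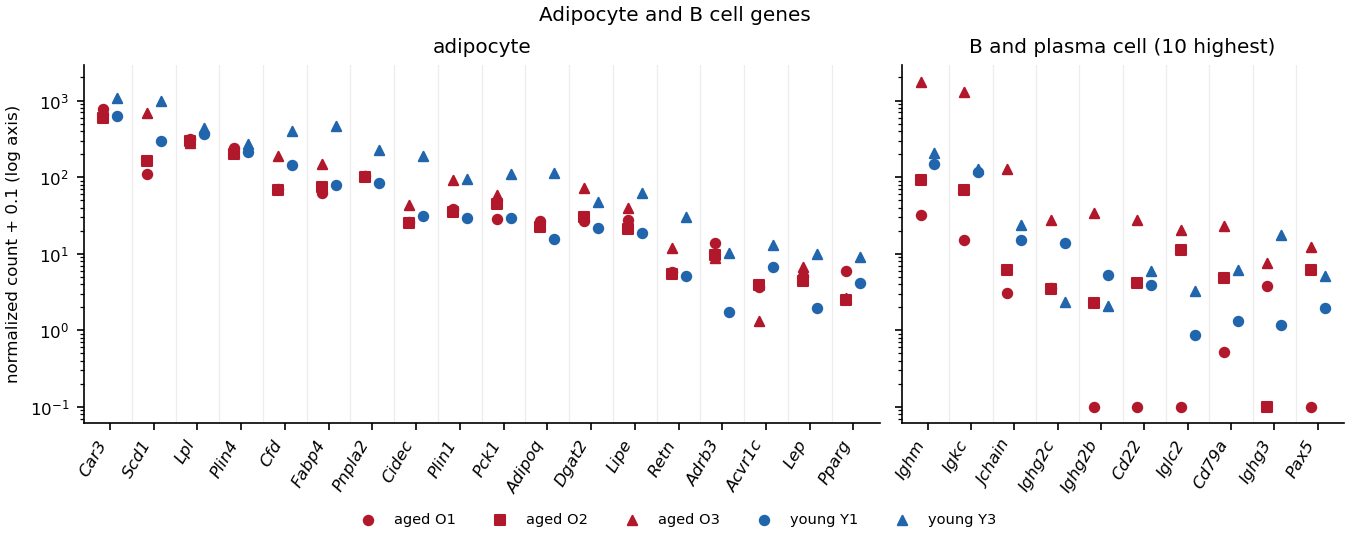
Normalized counts (plus 0.1, log axis) of the 18 adipocyte genes and of the 10 highest B and plasma cell genes in each stromal library, aged mice in red and young mice in blue. Y3 is highest for Adipoq (114) and Cidec (188), and O3 is highest for Ighm (1770.4) and Igkc (1305).

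Schwann cell and myelin genes were lower in aged stroma. Of 15 genes tested, 13 had a negative log2 fold change (median -0.77). For 6 of them, among which were Mbp, Cdh19, Sox10 and S100b, both young values lay above every aged value, against 14.1% of all genes, and none was called. Sums were 100.4, 195 and 260.4 in aged mice and 329.9 and 284 in young mice, without overlap. O1 was lowest and O3 came near the young mice.

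Mbp, myelin basic protein, had 21.8, 26.4 and 59.1 normalized counts in aged mice and 71.2 and 59.5 in young mice (-0.87 ± 0.40). Between O3 and Y3 the difference was under 1 normalized count, so the absence of overlap for Mbp rests on a very small gap. Cdh19, a cadherin of Schwann cell precursors, was at 2.74, 15.9 and 10.4 in aged mice and 23.5 and 25.8 in young mice (-1.34 ± 0.59). Sox10, the transcription factor of the Schwann cell lineage, was at 6.08, 5.27 and 8.97 in aged mice and 13.1 and 9.41 in young mice. For Cdh19 both young mice exceeded the highest aged mouse by at least 7 normalized counts, whereas the gap for Sox10 was small. The sodium channel Scn7a was at 31.2, 37.4 and 45.4 in aged mice and 42.7 and 50.5 in young mice. The myelin protein Pmp22, which fibroblasts also make, was at 14.5, 51.3 and 48.4 in aged mice and 39.3 and 33.1 in young mice. Both overlapped. In the epithelium of the same mice, the list summed to 204, 164 and 171 in aged mice and 175 and 169.7 in young mice, and the ages overlapped.

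Genes of the neuromuscular junction, where motor nerves meet striated fibres, had no common direction (18 tested, 8 positive, median -0.08). Lrp4, the agrin receptor that organises the junction, was at 114, 47.2 and 78.3 in aged mice and 85.2 and 76.4 in young mice. Musk, its partner kinase, was at 93.4, 66.8 and 56.6 in aged mice and 85.96 and 72.9 in young mice. Hdac4, a repressor induced when fibres lose their nerve, was at 59.8, 66.8 and 45.5 in aged mice and 50.8 and 43.6 in young mice. All 3 overlapped between the ages. The acetylcholine receptor subunit Chrnd, at 8.90, 12.3 and 34.7 in aged mice and 8.44 and 7.51 in young mice, was above the young values in every aged mouse. The same held for Ache, the enzyme that breaks acetylcholine down, at 11.1, 12.3 and 21.6 in aged mice and 8.91 and 7.51 in young mice, and for the adhesion molecule Ncam1 at 28.1, 32.7 and 28.7 in aged mice and 25.6 and 26.3 in young mice. These 3 of the 18 genes stood against a background of 6.42%, and the margin between the ages was under 3 normalized counts for each. The embryonic subunit Chrng was listed at 0 in all aged mice and at 1.55 and 0.887 in the young mice, a pattern shared by the 5530 genes counted above.

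Enteric neuron genes were mostly at trace level (13 of 17 tested, 6 positive, median -0.17). Nos1, the nitric oxide synthase of inhibitory neurons, which striated muscle also makes, was at 510.2, 283 and 363 in aged mice and 434 and 309 in young mice. Ret, the receptor that enteric neurons need, was at 7.36, 5.83 and 14.4 in aged mice and 6.66 and 6.15 in young mice. Uchl1, a ubiquitin hydrolase of neurons (chromosome 5, 66676091 to 66687234 in GRCm38, plus strand), was higher in every aged mouse, at 13.95, 19.6 and 10.2 in aged mice and 3.17 and 4.20 in young mice (1.98 ± 0.53, unadjusted p = 0.0041). It overlaps the antisense gene Uchl1os, and reads of these genes cannot be told apart where the counting does not use strand. Prph, Stmn2 and Cartpt, which are more restricted to neurons, were below the young values in every aged mouse (background 14.1%). They were at under 5 normalized counts, where library complexity bears most. Other members of the list, Gal, Nefm and Tubb3, had positive log2 fold changes (1.37, 1.31 and 0.38) and overlapped, and 7 of the 13 tested were negative. Stmn2 was at 3.34, 3.29 and 3.45 in aged mice and 4.49 and 3.79 in young mice.

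Mesothelial genes were lower in aged stroma. All 6 genes of the list were tested, all 6 had a negative log2 fold change (median -1.48) and 5 were without overlap, against 14.1% of all genes. Sums were 13.6, 25.5 and 76.5 in aged mice and 104 and 109.6 in young mice. The uroplakin Upk3b (chromosome 5, 136038496 to 136046487 in GRCm38, plus strand) had 3.68, 8.37 and 32.4 normalized counts in aged mice and 38.6 and 40.1 in young mice (-1.40 ± 0.69). Mesothelin (Msln) was at 3.59, 1.99 and 3.45 in aged mice and 16.6 and 9.94 in young mice (-2.14 ± 0.58, unadjusted p = 0.00454). The transcription factor Wt1 was at 0.0856, 2.67 and 6.67 in aged mice and 7.43 and 15.7 in young mice. Lrrn4 was at 2.65, 2.36 and 15.1 in aged mice and 18.5 and 21.4 in young mice, and the simple keratin Krt19 at 2.14, 7.20 and 13.7 in aged mice and 18.6 and 16.03 in young mice. O1 and O2 were below the young mice for all 5 genes, and O3 was nearest to them except for Msln. Muc16, the cell-surface mucin of mesothelium, was chosen after its values were seen and was at 6.42, 23.1 and 25.3 in aged mice and 72.1 and 77.97 in young mice (-2.03 ± 0.47).

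**Figure D5:**
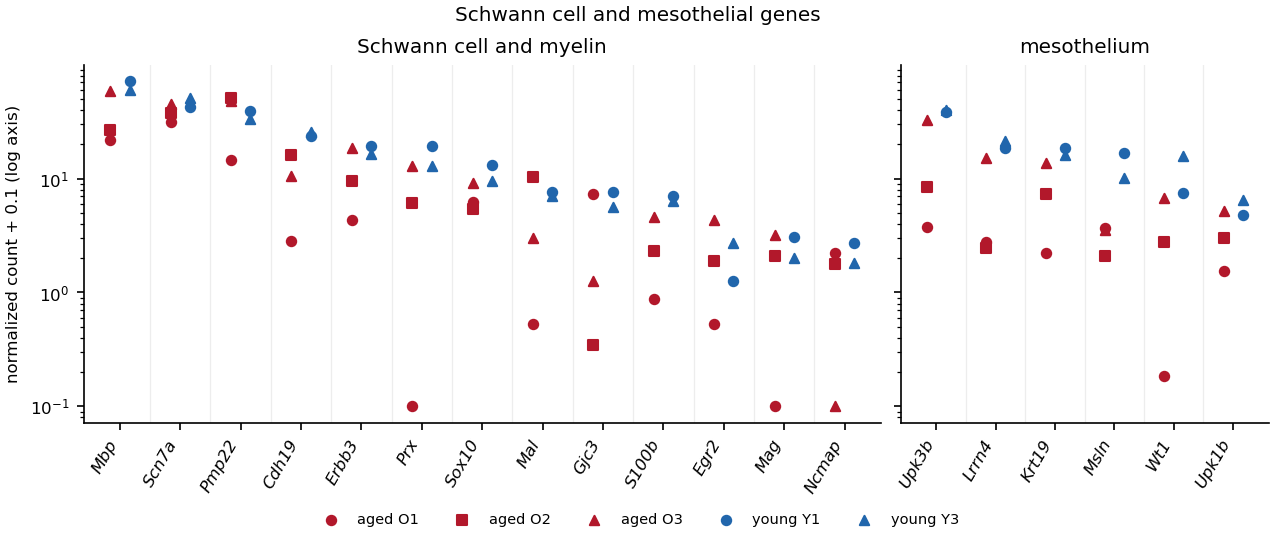
Normalized counts (plus 0.1, log axis) of 13 of the 15 Schwann cell and myelin genes and of the 6 mesothelial genes in each stromal library, with aged mice in red and young mice in blue. O1 is the lowest of the 5 for Mbp and Cdh19, and both young mice are above the aged mice for 5 of the 6 mesothelial genes.

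Squamous epithelial genes, a measure of epithelium left on the stroma, were higher in O2 and O3. Of 14 genes tested, 14 had a positive log2 fold change (median 1.95) and 6 were without overlap (background 6.42%), namely Krt14, Krt15, Krtdap, Cdh1, Dsp and Ly6d. Sums were 114, 799 and 442 in aged mice and 139 and 91.3 in young mice. O2 had the most, followed by O3, and O1 lay between the young mice. Krt4 was at 26.3, 304 and 152 in aged mice and 49.02 and 26.2 in young mice. Its partner keratin Krt13 was at 20.8, 293 and 119 in aged mice and 44.5 and 21.4 in young mice. The desmosomal plaque protein Dsp was at 22.9, 61.3 and 19.7 in aged mice and 12.6 and 9.35 in young mice (1.66 ± 0.52). The part of residual epithelium in the differences between the ages was not tested.

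Vessel genes were mixed. Blood endothelial genes had a median of -0.11 (12 tested, 4 positive). Pecam1, which joins endothelial cells, was at 16.3, 27.5 and 49.5 in aged mice and 23.3 and 39.5 in young mice. Vwf, the clotting factor they store, was at 9.50, 25.5 and 55.5 in aged mice and 35.1 and 20.3 in young mice, and the angiopoietin receptor Tek was at 17.3, 27.8 and 33.6 in aged mice and 13.5 and 19.9 in young mice. O1 was the lowest of the 5 mice for Pecam1 and Vwf, and all 3 genes overlapped. At low levels, Emcn was above the young values in every aged mouse (background 6.42%). Cldn5 and Egfl7 were below them (background 14.1%). Log2 fold changes were 1.15 for Emcn, -1.28 for Cldn5 and -0.72 for Egfl7.

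Lymphatic genes were higher in aged stroma by a small amount. Of 6 genes, 5 were positive (median 0.36), and 4 were above (background 6.42%) and 1 below (background 14.1%) the young values in every aged mouse. Sums were 141, 123 and 149 in aged mice and 106 and 106 in young mice, without overlap. The hyaluronan receptor Lyve1 was at 31.2, 35.5 and 35.02 in aged mice and 28.6 and 26.6 in young mice. Mmrn1, a secreted multimerin, was at 34.3, 29.4 and 28.8 in aged mice and 23.9 and 22.4 in young mice. The chemokine Ccl21a, which guides immune cells into lymphatics, was at 10.4, 14.02 and 11.5 in aged mice and 3.64 and 6.45 in young mice (1.24 ± 0.53). The growth factor receptor Flt4 was the other gene higher in every aged mouse. Prox1, the transcription factor that sets lymphatic identity, was lower in every aged mouse at 4.45, 5.15 and 0.863 in aged mice and 6.58 and 6.21 in young mice. Reln, the highest of the list, overlapped at 40.7, 18.6 and 38.4 in aged mice and 28.6 and 31.4 in young mice. Pericyte genes had a median of 0.03 (7 tested). Abcc9, a potassium channel subunit, was at 90.3, 96.6 and 65.1 in aged mice and 86.03 and 78.9 in young mice. Rgs5, a brake on G protein signals, was at 40.7, 113 and 39.2 in aged mice and 46.8 and 76.8 in young mice. The proteoglycan Cspg4, at 44.9, 41.9 and 43.3 in aged mice and 41.4 and 27.5 in young mice, was above the young values in every aged mouse.

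Immune genes were dominated by mouse O3. B and plasma cell genes summed to 66.3, 207 and 3439 in aged mice and 327 and 425 in young mice, and O3 was highest for 17 of the 19 members. Ighm, the heavy chain of IgM, had 31.9, 90.6 and 1770.4 normalized counts in aged mice and 149 and 207 in young mice. Igkc, the kappa light chain, had 14.98, 66.8 and 1305 normalized counts in aged mice and 115 and 127 in young mice. Jchain, which links secreted IgM and IgA, was at 2.996, 6.02 and 128 in aged mice and 15.02 and 23.8 in young mice. O1 and O2 lay under both young mice for all 3 genes. The list had a median of 1.10 with O3 and -1.27 without it. The MHC class II list was also highest in O3, with sums of 131, 234 and 740.2 in aged mice and 157 and 245 in young mice, and its median of 0.68 turned to -0.12 without O3. Cd74, the invariant chain, was at 59.1, 94.3 and 392 in aged mice and 71.6 and 116 in young mice. The class II chain H2-Ab1 was at 24.7, 59.4 and 147 in aged mice and 28.9 and 48.6 in young mice, and H2-Eb1 was at 5.82, 36.2 and 80.7 in aged mice and 20.1 and 30.8 in young mice. Without O3 the highest aged value was under the higher young value for Cd74. For H2-Ab1 and H2-Eb1, in contrast, O2 was above both young mice, and O1 was below both.

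O3 also carried transcripts of the lung. Sftpc, the surfactant protein of alveolar cells, was listed at 0 in O1 and O2 and had 220.3 normalized counts in O3, against 1.39 and 0.887 in the young mice. Scgb1a1, the secretoglobin of airway club cells, was at 0, 0.806 and 33.5 in aged mice and 1.08 and 0.473 in young mice. O3 was also the highest for globins, with Hba-a1 at 89.5, 92.9 and 195 in aged mice and 133 and 95.8 in young mice. Hba-a2 and Hbb-bs, the next in level, were also highest in O3, and reads of the near-identical Hba-a1 and Hba-a2 may be split between them. The airway list, led by Sftpc, Scgb1a1 and the keratin Krt8, summed to 7.10, 2.54 and 261 in aged mice and 17.7 and 8.70 in young mice. Whether tissue from outside the esophagus has a part in the immune values of O3 was not tested.

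Macrophage genes were mostly higher in aged stroma, but their sums overlapped. Of 18 genes tested, 15 had a positive log2 fold change (median 0.37), 3 were without overlap (background 6.42%), and 0 had an unadjusted p under 0.05. Sums were 255, 341 and 538 in aged mice and 254 and 287 in young mice, with O1 under Y3 and O3 the highest. Lyz2, lysozyme of myeloid cells, had 92.6, 104 and 263 normalized counts in aged mice and 91.3 and 92.1 in young mice (0.74 ± 0.42). Lyz2 is also made by alveolar cells, and its excess was in O3, while O1 and O2 were close to the young mice. Csf1r, the receptor that macrophages depend on, was at 22.5, 32.9 and 50.5 in aged mice and 23.5 and 27.9 in young mice. The scavenger receptor Cd163 was at 36.98, 35.5 and 16.3 in aged mice and 25.8 and 32.01 in young mice. Both overlapped. The Fc receptor Fcgr1, without overlap, was at 2.23, 4.84 and 5.69 in aged mice and 1.63 and 0.887 in young mice, and Gpnmb, a lysosomal glycoprotein, also without overlap, was at 2.996, 5.46 and 4.83 in aged mice and 1.78 and 2.13 in young mice. The median of the list stayed positive under all 16 alternative settings, including the one without O3.

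T and NK cell genes were at trace level (16 of 20 tested, median -0.18). Cd2, an adhesion molecule of T cells, was at 2.82, 2.42 and 8.68 in aged mice and 0.620 and 3.73 in young mice. Cd3g, a chain of the T cell receptor complex, was at 0, 0.620 and 7.59 in aged mice and 2.17 and 1.18 in young mice, and Il7r at 0.0856, 4.16 and 3.11 in aged mice and 1.16 and 2.60 in young mice. The 3 genes overlapped and were under 10 normalized counts in every mouse. Mast cell and granulocyte genes were low as well (10 of 12 tested, 3 positive, median -0.77). Their highest members, Mcpt4, Kit and Cma1, had log2 fold changes of 0.90, -0.07 and 0.49, so the median does not describe them. The mast cell protease Mcpt4 was at 9.50, 6.70 and 3.34 in aged mice and 1.63 and 5.32 in young mice. Cma1, another of these proteases, was at 1.97, 7.69 and 6.67 in aged mice and 3.56 and 4.20 in young mice. The receptor Kit, which interstitial cells of Cajal also carry, was at 0.942, 10.4 and 3.80 in aged mice and 3.56 and 7.04 in young mice, lowest in O1.

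Interferon-stimulated genes had a median of -0.04 (18 tested). Ifi27l2a, the highest member, was at 27.05, 19.1 and 39.8 in aged mice and 25.7 and 60.3 in young mice. The GTPase Gbp2 was at 17.9, 6.39 and 15.2 in aged mice and 9.60 and 15.9 in young mice, and Ifit3, which binds viral RNA complexes, at 6.25, 9.99 and 27.3 in aged mice and 7.20 and 6.63 in young mice. All 3 overlapped, with O3 the highest for Ifit3. Of the chemokines and cytokines, 11 of 16 were tested (median 0.25). Cxcl12, a chemokine of stromal cells, was at 14.9, 17.6 and 50.4 in aged mice and 17.6 and 22.8 in young mice. Cxcl13, which draws B cells, was at 14.9, 8.75 and 35.02 in aged mice and 12.4 and 18.04 in young mice, and Ccl11, which draws eosinophils, at 7.53, 16.7 and 9.32 in aged mice and 5.65 and 7.87 in young mice. O3 was the highest for Cxcl12 and Cxcl13, as for the B cell genes. Il6 was at 0, 2.05 and 0 in aged mice and 1.94 and 0.296 in young mice.

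Genes tied to cell ageing gave no common pattern. Of 12 senescence genes 11 were tested, and Cdkn2a, the best known of them, did not pass the filter, at 0, 1.36 and 0 in aged mice and 0.387 and 0.237 in young mice. Igfbp5, a binding protein of insulin-like growth factors and by far the highest of the list, was at 1712, 1754 and 1824 in aged mice and 1466 and 1432 in young mice (0.28 ± 0.23). Cdkn1a, the p21 inhibitor of the cell cycle, was at 42.8, 27.6 and 56.1 in aged mice and 58.5 and 63.4 in young mice (-0.53 ± 0.31). Igfbp5 was above (background 6.42%) and Cdkn1a below (background 14.1%) the young values in every aged mouse. Igfbp3, a relative of Igfbp5, overlapped at 20.03, 7.32 and 15.2 in aged mice and 16.96 and 21.3 in young mice. The list median was -0.43, while its sum was higher in aged mice, as for Igfbp5, which makes up most of it. Proliferation genes were under 25 normalized counts. The topoisomerase Top2a was higher in every aged mouse at 12.3, 8.62 and 20.6 in aged mice and 4.03 and 2.72 in young mice (2.04 ± 0.58). Mki67, the usual marker of dividing cells, overlapped at 2.82, 6.51 and 19.4 in aged mice and 5.42 and 8.10 in young mice, and so did Mcm2 at 4.62, 8.25 and 5.35 in aged mice and 4.80 and 4.32 in young mice. Bub1, a kinase of the mitotic checkpoint, went the other way, listed at 0 in all aged mice and at 0.929 and 0.769 in young mice. The list median was 0.41 (11 of 12 tested).

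All 13 protein-coding genes of the mitochondrial genome had a negative log2 fold change (median -0.28), and all 13 overlapped. The median of these 13 genes turned positive (0.13) without Y1. Shares of counts were taken over the whole mitochondrial genome, its ribosomal RNA genes included. They were 26.1%, 17.8% and 15.5% in the aged mice and 27.9% and 22.5% in the young mice (exact permutation test, two-sided, p = 0.4, where 3 against 2 samples cannot go under 0.2). Nuclear and mitochondrial ribosomal RNA genes together took 22.8%, 16.4% and 14.1% in aged mice and 24.8% and 20.7% in young mice. The mitochondrial shares are therefore not those of the 13 genes. The nuclear ribosomal RNA gene CT010467.1 took 1.47% to 1.88% of counts in the 5 samples (p = 0.6, same exact test), and protein-coding genes took 45.9% to 53.3% (p = 0.8, same exact test). The most abundant of the 13 genes, mt-Co1, was at 15616, 8369.95 and 7414 in aged mice and 14703 and 9466 in young mice. Next came mt-Cytb at 8438, 4479.6 and 3716 in aged mice and 8557 and 5243 in young mice and mt-Nd5 at 7776, 3919 and 3701 in aged mice and 6964 and 4626 in young mice. O1 was the highest or next to the highest of the 5 mice for all 3.

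Stress and clock lists had medians of 0.15 to 0.25, while single members went further in both directions. Log2 fold changes ran from -1.44 (Egr1) to 0.93 (Fosb) for immediate early genes and from -0.58 (Per2) to 1.46 (Dbp) for clock genes. The small heat shock protein Hspb8, a chaperone of muscle, was higher in every aged mouse at 267, 230.4 and 252 in aged mice and 189 and 155 in young mice (0.54 ± 0.23). Its relative Hspb1 overlapped at 192, 157 and 169 in aged mice and 170.1 and 126 in young mice, and so did its partner Bag3 at 179, 150.1 and 191 in aged mice and 163 and 95.9 in young mice (list median 0.15, 10 tested). Immediate early genes, which respond to handling, had a median of 0.25 (14 tested), and the members Jun, Nr4a1 and Dusp1 overlapped. Jun was at 153, 114 and 111 in aged mice and 116 and 81.5 in young mice. Of 13 clock genes tested (median 0.20), Clock itself was lower in every aged mouse at 55.4, 50.99 and 50.7 in aged mice and 76.6 and 77.1 in young mice (-0.55 ± 0.23), and Tef and Nr1d1 overlapped. Tef, a clock-driven transcription factor, was at 98.3, 102 and 46.9 in aged mice and 65.5 and 62.9 in young mice, and Nr1d1, a repressor in the clock, at 64.2, 83.2 and 51.01 in aged mice and 35.9 and 55.96 in young mice. The times of tissue collection are not given, so time of day and age cannot be told apart for this list.

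The genes with the lowest unadjusted p outside the lists were examined after their values were seen, among protein-coding genes whose mean log2 CPM was 3 or more. Among the genes higher in every aged mouse was Ccdc3, a secreted protein of fat and endothelium, at 16.4, 35.9 and 41.9 in aged mice and 4.34 and 8.22 in young mice (2.32 ± 0.50). The cytoskeletal alpha-actinin Actn1 was at 65.5, 89.1 and 62.7 in aged mice and 26.3 and 34.8 in young mice (1.24 ± 0.29). The brain-type creatine kinase Ckb, which smooth muscle also uses, was at 38.7, 73.6 and 25.9 in aged mice and 9.60 and 16.03 in young mice (1.84 ± 0.47). All aged values were above both young values for these genes. Flna, the actin cross-linker filamin A, was at 417, 1107 and 548 in aged mice and 216 and 301 in young mice (1.42 ± 0.41), with O2 highest as for the smooth muscle genes. Islr, a surface protein of mesenchymal cells, was at 33.4, 76.8 and 68.7 in aged mice and 19.4 and 24.02 in young mice. Among the genes lower in every aged mouse was Zbtb16, a transcription factor induced by glucocorticoids, at 64.7, 72.4 and 30.6 in aged mice and 133 and 123 in young mice (-1.19 ± 0.34). Wnt2b, a secreted Wnt protein of mesenchyme and mesothelium, was at 5.82, 10.5 and 4.60 in aged mice and 15.3 and 28.4 in young mice. Haptoglobin (Hp) was at 20.7, 21.9 and 14.6 in aged mice and 34.5 and 47.8 in young mice. For Hp and Wnt2b the highest value was in Y3. For Zbtb16 the young mice were close to each other.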

How the data were processed

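Bulk RNA-Seq counts of the 5 stromal samples were analysed, together with the epithelium of the same 5 mice for the comparison of layers. The authors extracted RNA with a column kit, enriched polyadenylated RNA with oligo-dT, sequenced it on an Illumina instrument and deposited raw read counts per gene symbol, 1 table of 55291 genes per sample, after alignment to GRCm38 with Rsubread and gene-level counting with featureCounts. The submitters' processing notes also name bcl2fastq. The strand setting and the treatment of reads that match several genes are not given in the sources used here. Reads carried no molecular identifiers, so a floor of 3 counts covers counting error only.

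Counts were tested in R 4.3.3 with edgeR 4.0.16 (TMM scaling, filterByExpr with a minimum count of 10, robust quasi-likelihood test, Benjamini-Hochberg adjustment over all genes tested, threshold 0.05). DESeq2 1.42.0 was an alternative. The fit used the 5 stromal samples and no covariate, and the interaction with layer used the 10 samples of the 5 mice. Positions, gene types and exon lengths came from GENCODE M21, which holds 53292 of the 55291 symbols. TPM was computed over protein-coding genes, and figures add 0.1 to each normalized count. Shares of counts were compared by an exact permutation test (scipy 1.17.1), and code was tested on simulated data. The largest Pearson correlation between replicates of an age was 0.952, and their counts differed by 25.2 to 93.5 times the sampling noise (chi-square per degree of freedom), so all 5 libraries were counted.

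The members and the 40 gene lists were chosen with earlier results of these data known. Named genes are the 3 members of each list with the highest mean normalized count, the genes called in a comparison, and the checks Xist and CT010467.1. All other genes named were chosen after their values were seen. Layers of 1 mouse share the mouse by their labels. Their deviations from the group means correlated at 0.0574 to 0.115 across genes, and those of different mice at -0.115 to -0.00306. Centring on group means ties these values to each other, and the young ones mirror exactly (0.115 and -0.115). The values for different mice are therefore no separate contrast, and the pairing rests on the labels. For 2 members of the Schwann cell list, values of the single gene are not reported here.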

Additional observations from a re-analysis of the deposited data

How the results depend on the processing

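The biological coefficient of variation among mice was 0.835. The 0 genes called for age became 2 with DESeq2, 26 without the filter on low counts, 6 with sex read from Xist as a covariate, 2 with the 4 groups of the 10 samples and 60 with all 14 samples. With each mouse left out in turn, 0 to 13 genes were called, the 13 without Y1 and 7 without Y3, fits in which the lone young mouse is assumed to vary like the aged mice. The mice numbered 1 and 3 in both ages share only a number (correlations of 0.0188 and 0.0316), and with the replicate block 14 genes were called. Upper quartile scaling, at least 10 counts in every sample, protein-coding genes alone, and leaving out mitochondrial and ribosomal RNA genes or genes of the sex chromosomes gave 0 calls. The median log2 fold change of all genes was -0.60 without the filter, -0.30 with the replicate block and -0.19 with the sex covariate. Actg2 was called under 6 of the 16 alternatives, 2 of them these fits with 1 young mouse. The interaction with layer gave 62 calls with DESeq2, 98 without the filter, and 0 under the other settings, the block of the mouse included. As a percent of protein-coding counts, the aged minus young difference was -12.8 for the whole mitochondrial genome, its ribosomal RNA genes included, and -0.296 for CT010467.1. With a mouse left out, it was -0.248 to 0.0623 percentage points for CT010467.1 and -1.89 to 5.54 for protein-coding genes, the ends without Y1 and Y3. Of the 40 lists, 13 kept the sign of the median under every alternative that gave one, among them smooth muscle, fibroblast, lymphatic, macrophage, Schwann cell and mesothelial genes. Of 503 genes, 243 kept their sign. The causes of the other changes were not tested.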

Other observations

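Transcripts of organs next to the esophagus were measured as well. Cartilage genes summed to 15.3, 4.78 and 2.88 in aged mice and 17.7 and 16.98 in young mice, without overlap. Of 6 tested, Col11a2, Col2a1 and Acan were the highest, and 3 were below the young values in every aged mouse (background 14.1%). Col2a1, the collagen of hyaline cartilage, was 1 of these, at 1.80, 1.86 and 1.27 in aged mice and 1.94 and 4.56 in young mice. Its lack of overlap rests on the small gap between O2 and Y1. Thyroid genes, led by the receptor Tshr, Tg and the transcription factor Pax8, summed to 9.07, 5.09 and 5.46 in aged mice and 5.81 and 19.1 in young mice, and Tg, thyroglobulin, was at 2.40, 0.496 and 0.0575 in aged mice and 1.86 and 4.56 in young mice. Gastric genes summed to 10.3, 3.72 and 5.41 in aged mice and 8.05 and 5.98 in young mice, led by Muc5ac, Gkn2 and Gkn3. The mucin Muc5ac was at 1.37, 1.99 and 0.0575 in aged mice and 2.71 and 2.96 in young mice. These 3 lists stayed under 20 normalized counts in every mouse.

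Genes shared with the heart were more abundant. The cardiac list summed to 556, 588 and 387 in aged mice and 855 and 420.2 in young mice, and the ages overlapped. Most of this sum was Actc1, with a log2 fold change of -0.46. Of 6 members tested, 5 had a positive log2 fold change (median 0.83). Actc1, the cardiac actin that skeletal muscle also makes, was at 451, 493 and 350.4 in aged mice and 819.99 and 367 in young mice. Tnnt2, cardiac troponin T, was at 59.6, 58.4 and 22.3 in aged mice and 17.6 and 32.7 in young mice, and the release channel Ryr2 was at 30.2, 26.1 and 6.44 in aged mice and 9.91 and 13.8 in young mice.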
